A study of Rattus norvegicus with 10 samples.

Results

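A set of 10 genes that act in, or are switched on by, NF-κB and STAT3 signalling was followed through an RNA-seq series of rat hippocampal CA1 slices. They were chosen by gene symbol, as the rows of the count table named Nfkbia, Nfkbiz, Tnfaip3, Socs3, Zfp36, Bcl3, Icam1, Ier3, Nfkb1 and Stat3. The choice was made with earlier results of these data known. Shares over all genes set beside theirs below are therefore descriptions only. All 10 were found among the 32545 genes of the table, each in a single row, and all 10 were among the 15032 genes with enough reads to be tested. Counts per library ran from 11 for Bcl3 in its lowest library to 1922 for Nfkbia in its highest.

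The 10 libraries form 5 groups of 2. SKF slices received SKF, an agonist of D1 and D5 dopamine receptors. SKF+Aβ slices received the agonist and 200 nM Aβ(1–42) oligomers, and SKF+Aβ+CSP slices received in addition empty glucose-derived carbon nanospheres (CSP) at 0.36 μg/ml. In the SKF+Aβ+CSP‐TTK21 group the nanospheres carried TTK21, a small molecule that activates CBP/p300 histone acetyltransferases, and the CSP‐TTK21 alone group received loaded nanospheres with neither SKF nor Aβ. All slices had 30 min of basal stimulation and were collected 1 h after treatment. They came from male Wistar rats, for which 5 to 7 weeks is the age given for the electrophysiology, and each library pooled 2 slices from 2 biological samples. Untreated slices are not analysed here, so no value below is relative to untreated tissue.

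NF-κB is a family of transcription factor dimers held in the cytoplasm by IκB proteins. When cytokine receptors, Toll-like receptors or neuronal activity trigger the IκB kinases, IκB is degraded, the dimers enter the nucleus, and among the first genes they switch on are those for IκBα and A20, which shut the pathway down again. STAT3 is phosphorylated by JAK kinases below receptors of the interleukin-6 family and in turn induces Socs3, which blocks those same receptors. In the brain both loops run in microglia, astrocytes, endothelial cells and neurons, and several of their genes are also early responders to synaptic activity and to slice preparation.

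The promoters are shown first because the genes were grouped by the factors named for them, and these stretches show where the letters those factors prefer do and do not occur. RefSeq promoter windows (rat build GRCr8, 250 bases before to 50 bases after the transcript start) were matched by symbol for 9 of the 10 genes; Ier3 was not matched. Both strands were searched for the NF-κB consensus, the STAT motif TTCNNNGAA, the AP-1 motif TGANTCA, the CRE TGACGTCA and the SRF CArG box. Each stretch below is written 5′ to 3′ on the gene's own strand, with the letters of the motif named for it, matched on either strand, in capitals. No match overlapped another, and the AP-1 letters of Tnfaip3, which run into the start of its far stretch, are left in lower case there.
Nfkbia, NF-κB: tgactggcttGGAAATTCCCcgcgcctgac
Nfkbiz, NF-κB: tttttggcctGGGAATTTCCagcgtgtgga
Tnfaip3, NF-κB, far match: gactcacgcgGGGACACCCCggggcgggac
Tnfaip3, NF-κB, near matches: gactGGAAAGTCCCtcGGAAATCCCCctgt
Socs3, NF-κB: gcgggtcaaaGGGGTGCCCCaggcgctagg
Bcl3, NF-κB: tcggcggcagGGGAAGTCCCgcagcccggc
Nfkb1, NF-κB: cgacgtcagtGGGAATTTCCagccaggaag
Icam1, STAT: ggcgcgaggtTTCCGGGAAagtggcccca
Zfp36, STAT: acagcctgacTTCTGCGAAccgactgtcg
Zfp36, SRF CArG box: ccgggccgccCCATAAAAGGcgaaagctcc

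On GRCr8 these stretches lie at chr6:78597084-78597113 (minus strand) for Nfkbia, chr11:58251698-58251727 (plus) for Nfkbiz, chr1:15544130-15544159 and chr1:15544021-15544050 (minus) for Tnfaip3, and chr10:103694910-103694939 (minus) for Socs3. The others are at chr1:88613574-88613603 (minus) for Bcl3, chr2:226805440-226805469 (minus) for Nfkb1, chr8:27829728-27829756 (plus) for Icam1, and chr1:92799080-92799108 and chr1:92799121-92799150 (minus) for Zfp36. Of the 9 promoters, 6 held the NF-κB consensus (Nfkbia, Nfkbiz, Tnfaip3, Socs3, Bcl3 and Nfkb1), which occurs in 4.18% of all 33469 promoter windows. Tnfaip3 held 3 matches, of which 2 lie side by side just before the start. The STAT motif was found in 2 (Icam1 and Zfp36; 8.87% of all windows), AP-1 in 1 (Tnfaip3; 7.33%), the CArG box in 1 (Zfp36; 1.64%) and the CRE in 0 (1.83%). Stat3 held none of the 5 motifs in its window. A match is only a description of letters, and the genes were picked by names that already stand for these pathways.

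**Figure D1:**
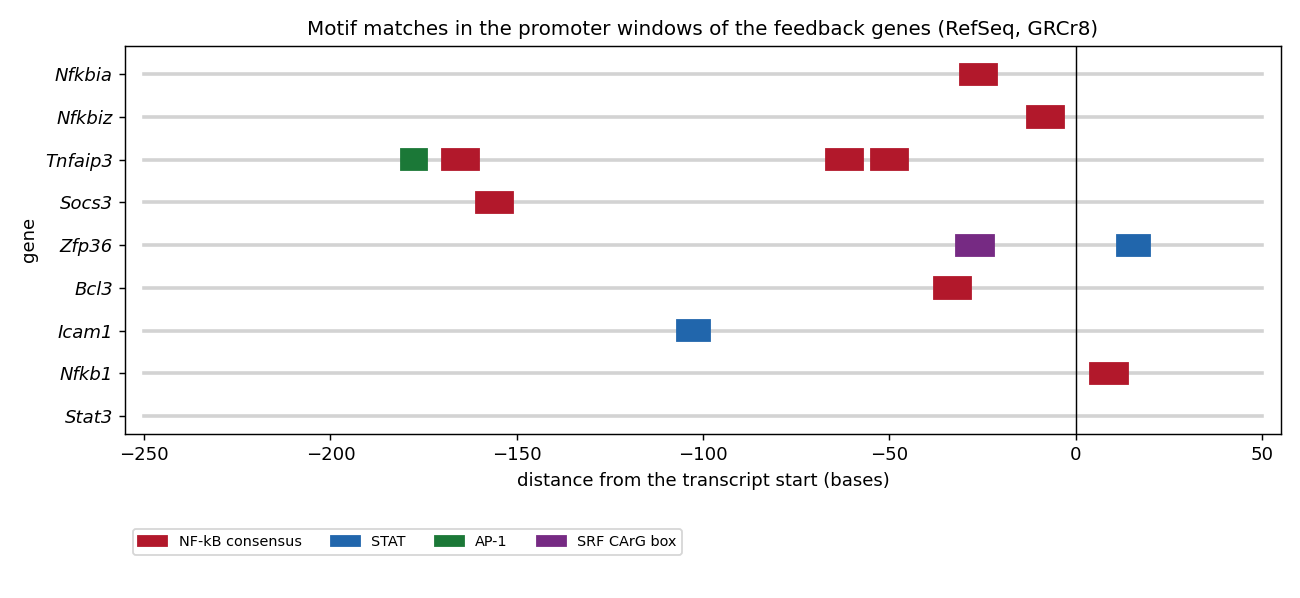
Motif matches in the promoter windows of the 9 matched genes, a row for each gene, with the distance from the transcript start in bases on the x axis and coloured boxes for the motifs. The NF-κB consensus (red) is present in 6 rows, at 3 places in Tnfaip3, and the Stat3 row is empty.

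Levels are given as CPM, the reads of a gene as a share of a library's total scaled by TMM factors (normalized CPM), for the 2 libraries of each group in the order replicate 1, replicate 2. They are not per length, so they are compared between libraries and not between genes. Differences are log2 fold changes with their standard errors from edgeR's quasi-likelihood test, fitted on all 15032 genes in all 10 libraries, and adjusted p-values are Benjamini-Hochberg over all genes tested. A gene was called at an adjusted p under 0.05 with a log2 fold change beyond 1.5.

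Nfkbia (ENSRNOG00000007390) encodes IκBα, the inhibitor that NF-κB induces against itself. Its normalized CPM was 265.7 and 222.7 with SKF, 165.8 and 137.6 with SKF+Aβ, 222.4 and 207.7 with SKF+Aβ+CSP, 220.3 and 137.2 with SKF+Aβ+CSP‐TTK21, and 204.8 and 138.6 with CSP‐TTK21 alone. Both SKF libraries stood above all 8 others, replicate 2 by little over SKF+Aβ+CSP replicate 1, and SKF+Aβ (152 ± 20.0, SD, n = 2) had the lowest mean against 244 ± 30.4 in SKF. The difference of SKF+Aβ from SKF was -0.69 ± 0.22 on the log2 scale, with an adjusted p of 0.0942 in edgeR's test, so it was not called. SKF+Aβ+CSP lay 0.50 ± 0.22 above SKF+Aβ without overlap between the groups, at an adjusted p of 1.00 (edgeR).

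Tnfaip3 (ENSRNOG00000049517) encodes A20, a ubiquitin-editing enzyme that ends signalling upstream of the IκB kinases. It read 151.5 and 80.6 with SKF, 72.4 and 65.0 with SKF+Aβ, 124.8 and 105.0 with SKF+Aβ+CSP, 119.4 and 50.6 with SKF+Aβ+CSP‐TTK21, and 80.2 and 51.2 with CSP‐TTK21 alone. The libraries of SKF and of SKF+Aβ+CSP‐TTK21 were far apart within their group, with an SD of 50.1 on a mean of 116 in SKF. Its range was the largest after that of Bcl3 among the 10, its highest library being 2.99 times its lowest. Both SKF+Aβ libraries nevertheless lay below both SKF libraries, by -0.76 ± 0.35 (adjusted p = 0.212, edgeR). Without SKF replicate 1 this difference was -0.25.

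Nfkbiz (ENSRNOG00000031163) and Bcl3 (ENSRNOG00000043416) encode nuclear IκB proteins, which bind NF-κB on DNA and adjust which targets are used. Nfkbiz read 56.0 and 41.3 with SKF, 42.5 and 38.01 with SKF+Aβ, 49.7 and 49.4 with SKF+Aβ+CSP, 56.4 and 41.8 with SKF+Aβ+CSP‐TTK21, and 45.7 and 33.7 with CSP‐TTK21 alone. No group of Nfkbiz stood clear of its neighbour in the order of the means. Bcl3, with the fewest reads of the 10 genes, read 7.1 and 3.1 with SKF, 5.0 and 2.8 with SKF+Aβ, 5.2 and 4.1 with SKF+Aβ+CSP, 2.7 and 1.6 with SKF+Aβ+CSP‐TTK21, and 4.6 and 3.3 with CSP‐TTK21 alone.

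Bcl3 was the gene with the largest log2 differences, all of them involving the SKF+Aβ+CSP‐TTK21 group, whose 2 libraries were below every other library. The difference of that group from SKF was -1.23 ± 0.47 (adjusted p = 0.185, edgeR) and from SKF+Aβ+CSP -1.12 ± 0.47 (adjusted p = 0.563, edgeR). It was -0.88 ± 0.48 from SKF+Aβ and -0.89 ± 0.48 from CSP‐TTK21 alone, and none of the 4 passed. Without SKF replicate 1 the first of these was -0.53. The difference from SKF+Aβ was -0.40 without SKF+Aβ replicate 1, and without replicate 2 of the loaded group it was -0.56 and that from CSP‐TTK21 alone -0.58.

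Nfkb1 (ENSRNOG00000023258) encodes the precursor of an NF-κB subunit, which itself restrains the pathway until it is processed. It read 125.0 and 101.6 with SKF, 111.7 and 85.8 with SKF+Aβ, 112.1 and 114.8 with SKF+Aβ+CSP, 103.4 and 81.8 with SKF+Aβ+CSP‐TTK21, and 99.0 and 84.1 with CSP‐TTK21 alone. Neighbouring groups overlapped all along the order of the means, which ran from SKF+Aβ+CSP down to CSP‐TTK21 alone. Its difference in SKF+Aβ was -0.20 ± 0.17 from SKF (adjusted p = 0.510, edgeR), the smallest of the 10 after that of Stat3.

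Icam1 (ENSRNOG00000020679) encodes an adhesion molecule of endothelial and glial cells and is a classic NF-κB target. It read 59.2 and 43.5 with SKF, 35.9 and 28.3 with SKF+Aβ, 50.8 and 42.5 with SKF+Aβ+CSP, 48.6 and 31.2 with SKF+Aβ+CSP‐TTK21, and 43.9 and 32.3 with CSP‐TTK21 alone. The order of the means was the same as for Nfkbia, from SKF down to SKF+Aβ, with no gap between neighbours. SKF+Aβ differed from SKF by -0.68 ± 0.23 (adjusted p = 0.116, edgeR) and SKF+Aβ+CSP from SKF+Aβ by 0.54 ± 0.23 (adjusted p = 1.00, edgeR).

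Ier3 (ENSRNOG00000000827) is an early response gene tied to cell survival, and Zfp36 (ENSRNOG00000058388) encodes tristetraprolin, which marks cytokine mRNAs for decay. Ier3 read 46.2 and 48.9 with SKF, 37.7 and 43.5 with SKF+Aβ, 52.2 and 46.6 with SKF+Aβ+CSP, 50.9 and 38.2 with SKF+Aβ+CSP‐TTK21, and 49.0 and 35.2 with CSP‐TTK21 alone. It had the smallest range of the 10 genes, its highest library being 1.49 times its lowest. Zfp36 read 131.6 and 173.3 with SKF, 73.5 and 131.9 with SKF+Aβ, 119.8 and 137.2 with SKF+Aβ+CSP, 154.6 and 131.0 with SKF+Aβ+CSP‐TTK21, and 116.5 and 80.3 with CSP‐TTK21 alone.

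The 2 SKF+Aβ libraries of Zfp36 disagreed, replicate 2 lying just above replicate 1 of SKF, so the groups overlapped although the fitted difference was -0.57 ± 0.24 (adjusted p = 0.184, edgeR). It was -0.22 without SKF+Aβ replicate 1 and -1.07 without SKF+Aβ replicate 2, and -0.36 without SKF replicate 2. Zfp36 was the only one of the 10 whose libraries were higher in SKF+Aβ+CSP‐TTK21 than in CSP‐TTK21 alone without overlap, by 0.54 ± 0.24 (adjusted p = 0.963, edgeR). Its difference between CSP‐TTK21 alone and SKF was -0.63 ± 0.24 (adjusted p = 0.633, edgeR).

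Socs3 (ENSRNOG00000002946), the STAT3-induced inhibitor of interleukin-6 family receptors, read 55.2 and 57.9 with SKF, 29.3 and 33.1 with SKF+Aβ, 46.7 and 34.9 with SKF+Aβ+CSP, 30.04 and 39.5 with SKF+Aβ+CSP‐TTK21, and 46.1 and 33.8 with CSP‐TTK21 alone. The SKF libraries agreed closely (56.5 ± 1.97, SD, n = 2) and stood above all 8 others, with SKF+Aβ at 31.2 ± 2.65 (SD, n = 2). Socs3 fell in SKF+Aβ against SKF by 0.86 ± 0.20 on the log2 scale, 1.81-fold lower, with an adjusted p of 0.0454 in edgeR's test. In the fit described above it was the only one of the 10 genes under 0.05 in any comparison, while some alternatives given in the closing section put others there. Socs3 did not reach the log2 limit of 1.5, so it was not called. With any 1 of these 4 libraries left out the difference lay between -0.96 and -0.79 and the adjusted p rose above 0.05, to 0.127 without SKF replicate 1, 0.0874 without SKF replicate 2, 0.196 without SKF+Aβ replicate 1 and 0.0854 without SKF+Aβ replicate 2 (edgeR). In the other groups Socs3 differed from SKF by -0.47 ± 0.19 with CSP, -0.70 ± 0.20 with CSP‐TTK21 and -0.50 ± 0.19 in CSP‐TTK21 alone, with adjusted p-values of 0.213, 0.119 and 0.633 (edgeR).

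Stat3 (ENSRNOG00000019742), the transcription factor that induces Socs3 and also its own gene, read 221.2 and 177.4 with SKF, 204.6 and 147.4 with SKF+Aβ, 190.7 and 198.8 with SKF+Aβ+CSP, 196.0 and 147.6 with SKF+Aβ+CSP‐TTK21, and 165.7 and 178.5 with CSP‐TTK21 alone. Every pair of neighbouring groups overlapped. The 4 differences from SKF lay between -0.21 and -0.03, and that of SKF+Aβ was -0.18 ± 0.18 (adjusted p = 0.574, edgeR).

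**Figure D2:**
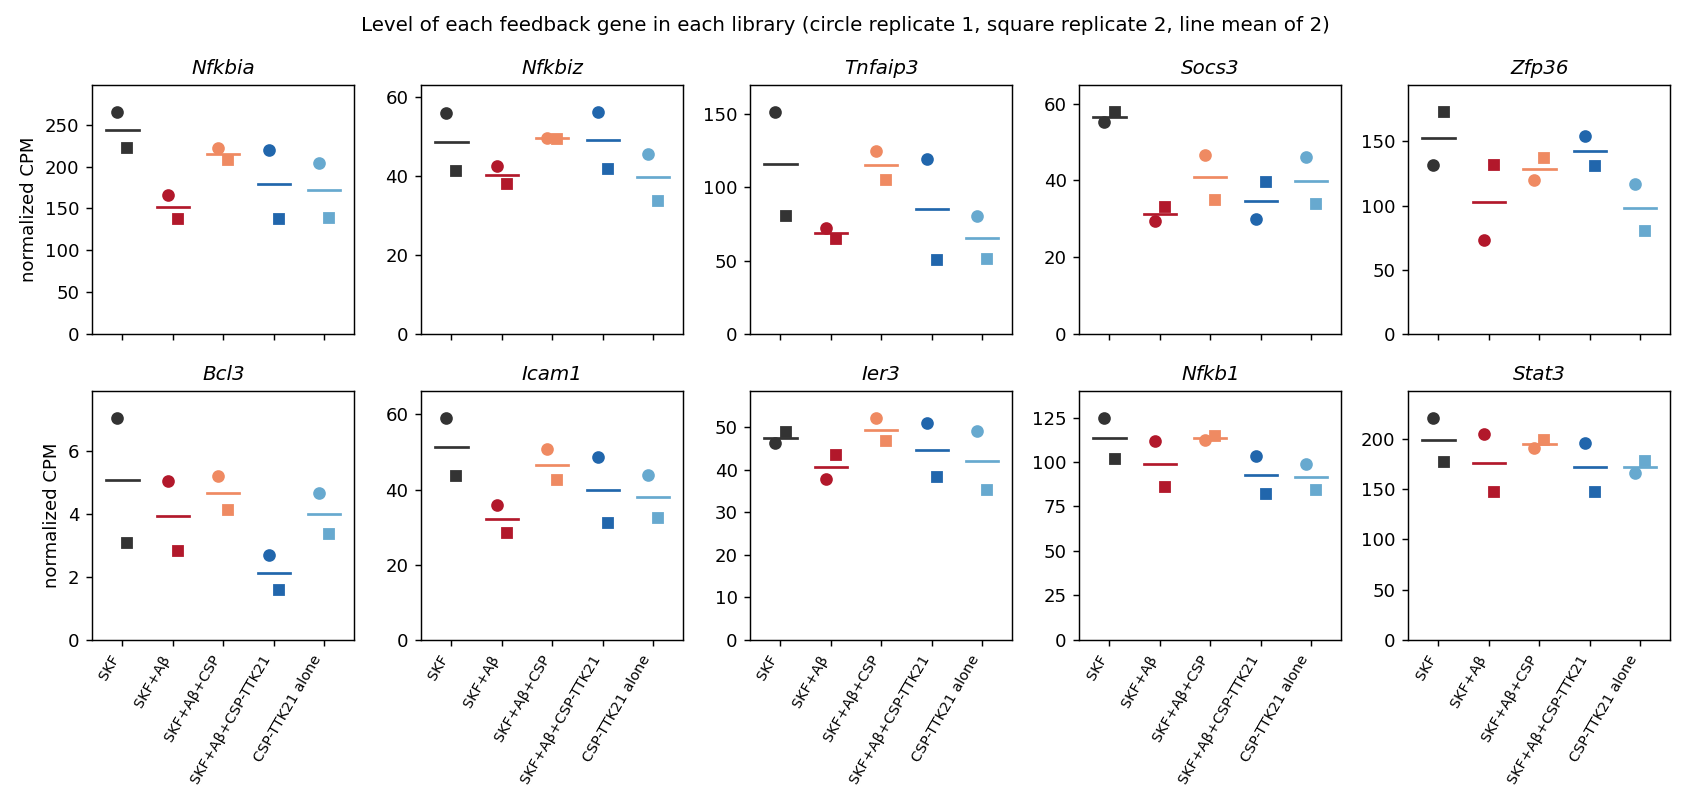
Normalized CPM of each gene in every library, with groups on the x axis, circles for replicate 1, squares for replicate 2 and lines for the mean of 2. In Nfkbia and Socs3 both SKF points stand above all others, while in Nfkbiz, Nfkb1 and Stat3 each group overlaps its neighbours in the order of the means.

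In SKF+Aβ against SKF, which asks what Aβ did to slices given the agonist, all 10 genes had a lower mean, where 50.1% of all genes tested did. Their median log2 fold change was -0.46, against -0.0013 over all genes. By edgeR's test 5 of the 10 had an unadjusted p under 0.05 and were lower (Nfkbia, Tnfaip3, Socs3, Zfp36 and Icam1), against 10.9% of all genes. At an adjusted p under 0.05 there was 1, Socs3, against 0.852% of all genes, and 0 of 10 were called, against 0.146%, as also with DESeq2 and limma. In 5 genes (Nfkbia, Tnfaip3, Socs3, Icam1 and Ier3) both SKF+Aβ libraries lay below both SKF libraries, as in 24.3% of all genes. Without SKF replicate 1, the library in which 6 of the 10 genes had their highest value, the median was -0.27 and 3 genes had an unadjusted p under 0.05, and without SKF+Aβ replicate 2 there were 2. In bulk tissue fewer cells of a type and less RNA per cell cannot be told apart.

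The remaining comparisons with SKF use the same 2 SKF libraries and are therefore not independent of that one. SKF+Aβ+CSP had a lower mean for 7 genes (49.7% of all genes), with a median of -0.07. Only Socs3 had an unadjusted p under 0.05 and was lower (9.03% of all genes), and Nfkbia and Socs3 did not overlap with SKF (25.3%). Without SKF replicate 1 the median was 0.11, and without SKF replicate 2 or SKF+Aβ+CSP replicate 2 the number at an unadjusted p under 0.05 was 0. SKF+Aβ+CSP‐TTK21 was lower for 9 genes (51.3%), with a median of -0.32. Socs3 and Bcl3 had an unadjusted p under 0.05 (8.78%), and Nfkbia, Socs3 and Bcl3 did not overlap (24.5%). The median was -0.07 without SKF+Aβ+CSP‐TTK21 replicate 2 and -0.15 without SKF replicate 1, with 1 gene at an unadjusted p under 0.05 in each case. There were 6 such genes without SKF+Aβ+CSP‐TTK21 replicate 1 or SKF replicate 2, with medians of -0.49 and -0.49.

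CSP‐TTK21 alone, which differs from SKF both in the agonist and in the particle, was lower than SKF for all 10 genes (49.6%), with a median of -0.38. Nfkbia, Tnfaip3, Socs3 and Zfp36 had an unadjusted p under 0.05 (3.63%), each with an adjusted p of 0.633 (edgeR). These 4 and Nfkb1 did not overlap with SKF (17.3%). Without SKF replicate 1 the median was -0.21 and 2 genes had an unadjusted p under 0.05, and without CSP‐TTK21 alone replicate 2 the median was -0.24 and there were 0. Without CSP‐TTK21 alone replicate 1 the median was -0.64. In these 3 comparisons 0 of 10 genes were called, against 0.0133%, 0% and 0% of all genes.

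A pair of comparisons asks what the particles did in the presence of SKF and Aβ, and both use the same SKF+Aβ libraries. With empty nanospheres all 10 genes were higher than in SKF+Aβ (48.4% of all genes), with a median of 0.31. Nfkbia, Tnfaip3 and Icam1 had an unadjusted p under 0.05 and were higher (1.63%). In 7 genes the groups did not overlap (14.3%), the exceptions being Zfp36, Bcl3 and Stat3. Each adjusted p was 1.00 (edgeR), and without SKF+Aβ+CSP replicate 1 the number at an unadjusted p under 0.05 was 0, and without SKF+Aβ replicate 2 it was 1. With TTK21 in the particle 7 genes were higher than in SKF+Aβ (51.9%), 0 had an unadjusted p under 0.05 (6.59%), and only Bcl3 did not overlap, on the low side (17.7%). The median of 0.20 became -0.11 without SKF+Aβ+CSP‐TTK21 replicate 1 and 0.40 without replicate 2, where 3 genes had an unadjusted p under 0.05. Without SKF+Aβ replicate 2 there were 2.

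The loaded against the empty particle compares groups that differ in TTK21. The loaded group was lower for 9 genes (48.9%), with a median of -0.23. Bcl3 had an unadjusted p under 0.05 (5.61%), and Bcl3 and Nfkb1 did not overlap (22.8%). The median was 0.034 without replicate 2 of the loaded group and -0.43 without replicate 1, with 0 and 5 genes at an unadjusted p under 0.05, and -0.15 with 0 genes without SKF+Aβ+CSP replicate 1. Against CSP‐TTK21 alone, the loaded group with SKF and Aβ was higher for 7 genes (50.7%), with a median of 0.06 that lay between -0.19 without the loaded group's replicate 1 and 0.32 without CSP‐TTK21 alone replicate 1. Zfp36 was higher at an unadjusted p under 0.05 (2.06%) and without overlap (17.6%), and Bcl3 was lower without overlap (16.1%). Genes at an unadjusted p under 0.05 numbered 0 without the loaded group's replicate 1 or CSP‐TTK21 alone replicate 2, 3 without the loaded group's replicate 2 and 2 without CSP‐TTK21 alone replicate 1. In these 4 comparisons 0 of 10 genes were called by edgeR's test, against 0%, 0%, 0% and 0% of all genes. Over the 5 groups together Socs3 (adjusted p = 0.227) and Nfkbia (adjusted p = 0.343) had an unadjusted p under 0.05 in edgeR's test, 2 of 10 against 14.3% of all genes, and 0 of 10 had an adjusted p under 0.05, against 0.00665%.

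**Figure D3:**
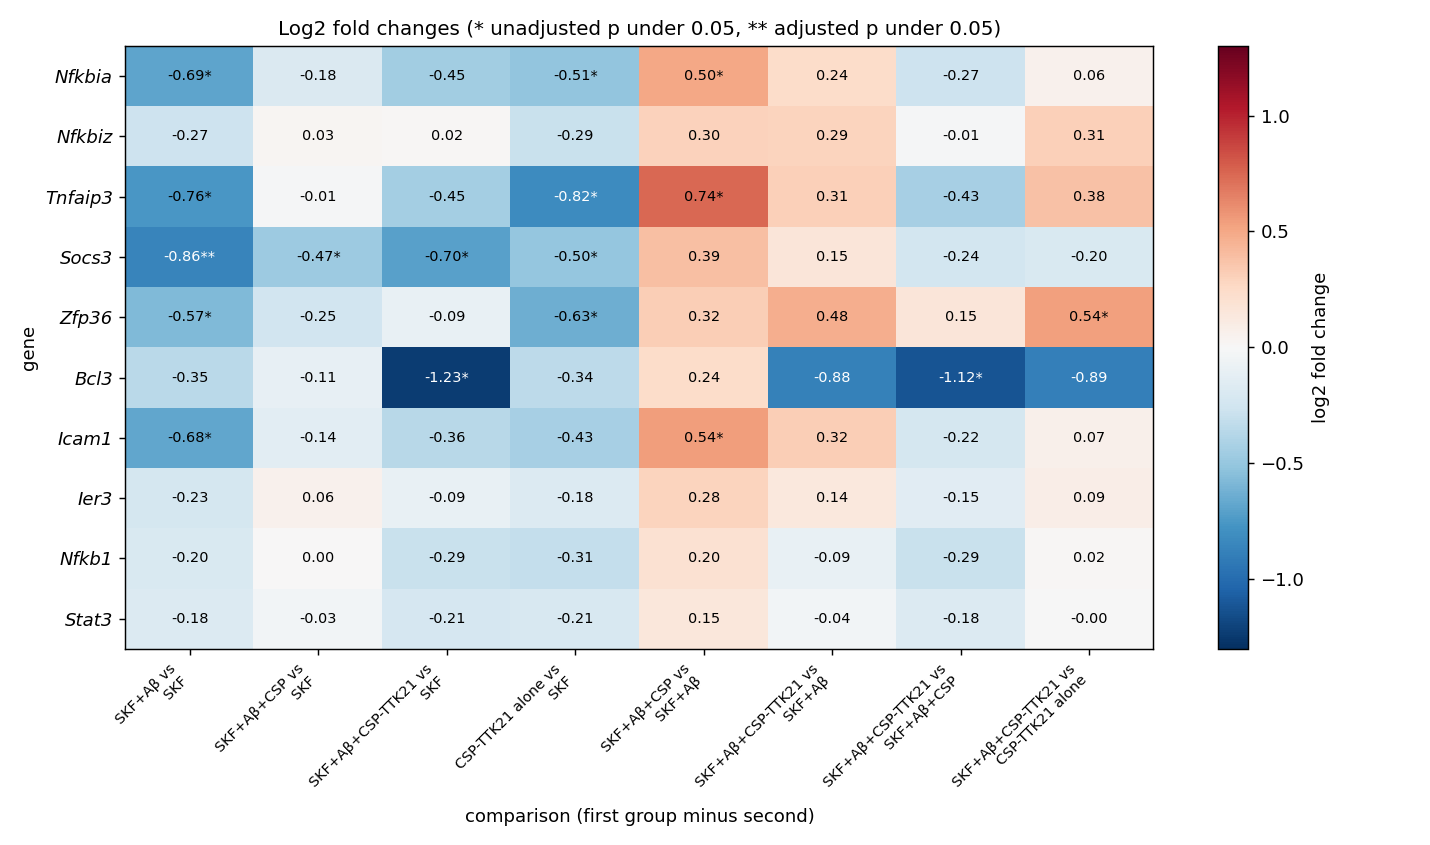
Log2 fold change of each gene (rows) in each of the 8 comparisons (columns, first group minus second), with colour and printed value giving the same number. The SKF+Aβ against SKF column is negative in all 10 rows, the SKF+Aβ+CSP against SKF+Aβ column is positive in all 10, and Socs3 in the first column is the single entry with an adjusted p under 0.05.

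Most pairs of the genes varied together from library to library. Of the 45 pairs, 43 had a positive Pearson correlation of log2 CPM over the 10 libraries, with a median of 0.64, the highest being 0.97 for Nfkbia and Icam1 and the lowest -0.28 for Zfp36 and Bcl3, where 49.7% of all pairs of tested genes were positive. After each group's mean was removed, 33 of the 45 were still positive, with a median of 0.63, against 50% of all pairs. With 2 libraries a group, each of these correlations rests on 5 replicate differences. Pairs among Nfkbia, Nfkbiz, Tnfaip3, Bcl3 and Icam1 were bound to be positive, as replicate 2 was below replicate 1 in all 5 groups for each. Of the 12 negative pairs 11 held Socs3 or Zfp36, the other being Ier3 with Stat3. Socs3 was negative with 7 of the other 9 genes, down to -0.63 with Stat3, and Zfp36 with 4, down to -0.59 with Stat3. The points share library, depth and scaling, and no p-value is attached. The mean of the 10 genes, each relative to its own mean over the libraries on the log2 scale, was highest in SKF replicate 1 at 0.43, where all 10 were above their own mean. It was lowest in SKF+Aβ+CSP‐TTK21 replicate 2 and CSP‐TTK21 alone replicate 2, both at -0.35, where 1 and 0 genes were above their own mean.

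Levels also differed by replicate number, and for the genes named next this is the same fact as their positive correlations within groups. Replicate 2 was below replicate 1 in all 5 groups for 5 of the 10 genes, Nfkbia, Nfkbiz, Tnfaip3, Bcl3 and Icam1, against 4.26% of all genes tested. The sources used here do not say what, if anything, libraries of 1 number share. SKF had the highest mean for 7 genes and SKF+Aβ+CSP for 3, and the lowest mean was in SKF+Aβ for 4, CSP‐TTK21 alone for 4 and SKF+Aβ+CSP‐TTK21 for 2.

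**Figure D4:**
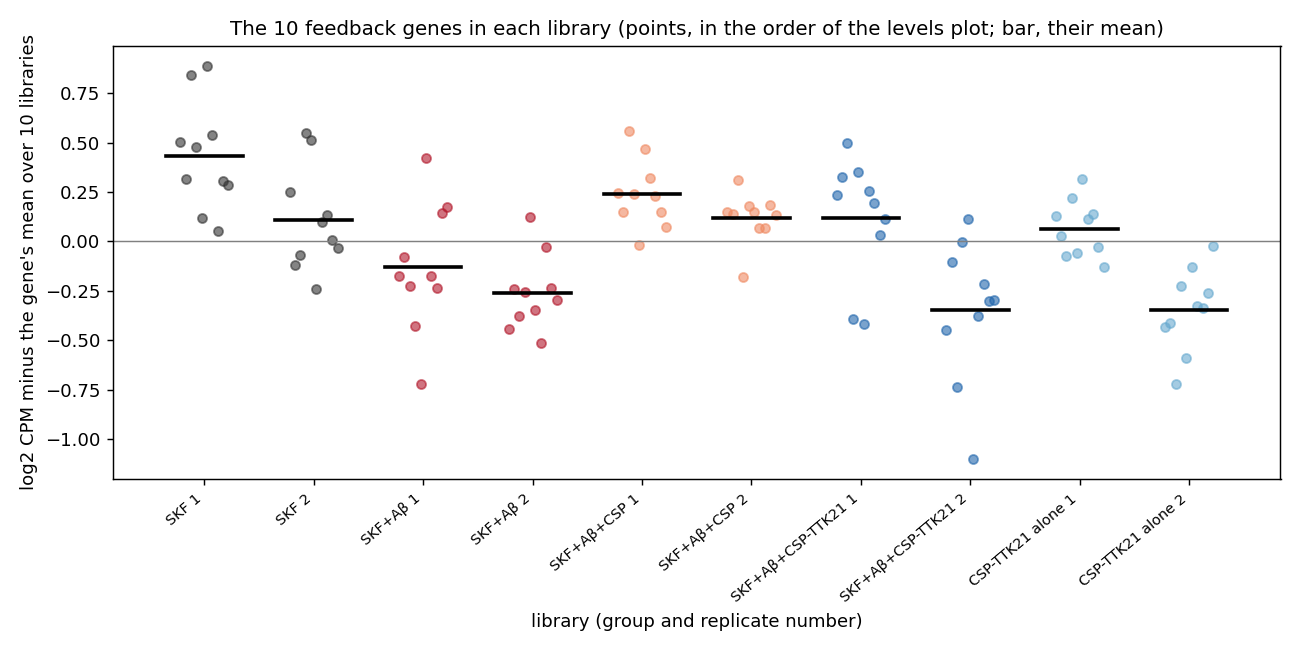
Log2 CPM of the 10 genes in each library relative to each gene's own mean over the 10 libraries (points), with their mean as a black bar. SKF replicate 1 is highest with a mean of 0.43, and in every group the bar of replicate 1 stands above that of replicate 2.

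Genes outside the set that followed it most closely were picked by their Pearson correlation over the 10 libraries. For the mean of the 10 genes these were Pfkfb3 (0.95), Lif (0.95), Oasl (0.95), Adamts4 (0.94) and Phlda1 (0.93). Lif, a cytokine of the interleukin-6 family, was also the gene most like Tnfaip3 (0.96). Birc3, a caspase and ubiquitin regulator, was closest to Nfkb1 (0.96), Atf3, an activity and stress responsive transcription factor, to Zfp36 (0.94), and Adamts1, a secreted protease, to Stat3 (0.97). The closest to Icam1 was Flnc (0.95), to Nfkbiz Gbp4 (0.92), to Bcl3 Nin (0.97), to Nfkbia RGD1562037 (0.96), to Ier3 LOC100911293 (0.90), and to Socs3 a 5S_rRNA entry (0.96), whose many near-identical copies make its count uncertain. The best of all genes tested over only 10 libraries is high by selection, so these are descriptions.

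The rest of the pathway was read from 6 lists, also chosen with earlier results of these data known. None of their genes had an adjusted p under 0.05 in any comparison but SKF+Aβ against SKF, and there 8 of 74 did, all lower (0.852% of all genes) and all short of the fold limit. Ier5l, at -1.49, passed that limit with no filter on low counts (-1.53, adjusted p = 0.00292, edgeR). These 8 were lower with any 1 of the 4 libraries left out, but the number at an adjusted p under 0.05 in edgeR's test was then 0 without SKF replicate 1, 2 without SKF replicate 2 (Zc3h12a and Pim1), and 0 without either SKF+Aβ library. In a fit of only those 4 libraries it was 0. Among 12 NF-κB subunits and activating kinases 1 passed, Rela, the main activating subunit, at 68.8 and 69.4 CPM in SKF and 48.1 and 40.2 with SKF+Aβ. Rela fell by 0.65 ± 0.15 (adjusted p = 0.0443, edgeR). Relb, a subunit of the slower alternative pathway, read 26.3 and 21.9 with SKF, 17.3 and 14.5 with SKF+Aβ, 23.0 and 21.1 with SKF+Aβ+CSP and 12.9 and 11.4 with SKF+Aβ+CSP‐TTK21. Chuk, which encodes an IκB kinase, lay on the other side, with 34.0 and 38.05 with SKF and 54.2 and 52.9 with SKF+Aβ, a difference of 0.57 ± 0.15 (adjusted p = 0.0585, edgeR).

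Of 18 other NF-κB target and feedback genes, 4 had an adjusted p under 0.05 and were lower (0.852% of all genes), and 0 were higher at that limit. By mean, 14 were lower (50.1%) and 4 higher (49.8%). In edgeR's test 7 were lower (10.9%) and 1 higher (12%) at an unadjusted p under 0.05. Irf1, an interferon response transcription factor, went from 126 and 141 CPM in SKF to 72.8 and 62.1 with SKF+Aβ, a fall of 0.98 ± 0.19 (adjusted p = 0.0355, edgeR). Zc3h12a, an RNase that degrades cytokine mRNAs and is itself a brake on the pathway, fell by 0.95 ± 0.19, from 29.7 and 23.9 to 12.9 and 14.9 (adjusted p = 0.0359, edgeR). Pim1, a survival kinase induced by STAT factors too, fell by 0.97 ± 0.23, from 80.9 and 53.9 to 35.5 and 33.2 (adjusted p = 0.0491, edgeR). Gadd45b, a stress and activity responsive gene, fell by 0.73 ± 0.16, from 136 and 132 to 87.2 and 74.5 (adjusted p = 0.0422, edgeR). The list's median was -0.47, close to that of the 10 feedback genes.

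The receptors and adaptors upstream had a median of 0.01 over 13 tested genes, of 14 listed, and 0 passed. Il1r1, the interleukin-1 receptor, read 7.88 and 6.41 with SKF and 10.48 and 10.9 with SKF+Aβ, and Myd88, an adaptor of that receptor and of Toll-like receptors, 15.3 and 12.9 against 10.8 and 8.05. In the JAK-STAT list 0 of 17 passed, with a median of -0.16. Stat5a, a relative of Stat3, read 13.1 and 12.7 with SKF against 8.24 and 7.005 with SKF+Aβ, and Ptpn11, a phosphatase that signals from cytokine receptors, 412 and 440 against 320 and 331, with adjusted p-values of 0.0841 and 0.0780 (edgeR).

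Among 11 tested STAT3 targets, of 12 listed, 2 had an adjusted p under 0.05 and were lower (0.852% of all genes), and 0 were higher at that limit. The median was -0.61, with 10 lower by mean (50.1%) and 1 higher (49.8%). In edgeR's test 7 were lower (10.9%) and 0 higher (12%) at an unadjusted p under 0.05. Myc, a growth transcription factor, went from 68.0 and 78.9 CPM to 48.2 and 41.0, a fall of 0.72 ± 0.15 (adjusted p = 0.0401, edgeR). Ccnd1, the cell cycle regulator cyclin D1, went from 101 and 99.5 to 66.2 and 51.4, a fall of 0.77 ± 0.17 (adjusted p = 0.0422, edgeR). Of the 3 tested relatives of Zfp36 and Ier3, 1 passed, Ier5l, an early response gene with few reads, at 6.91 and 8.14 with SKF and 2.65 and 2.68 with SKF+Aβ, a fall of 1.49 ± 0.33 (adjusted p = 0.0433, edgeR). Zfp36l1, a decay factor of the same family as tristetraprolin, read 80.3 and 99.3 with SKF and 72.4 and 70.3 with SKF+Aβ. Its difference was -0.33 ± 0.14 (adjusted p = 0.180, edgeR).

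**Figure D5:**
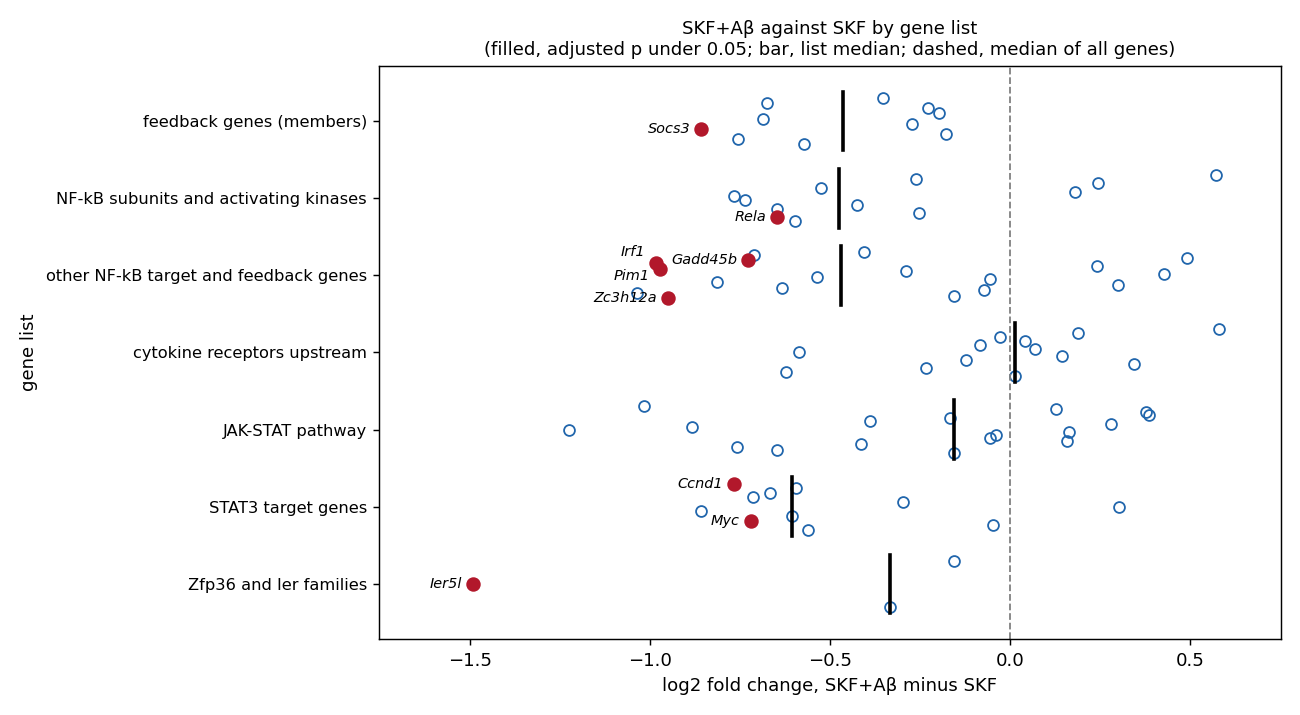
Log2 fold change of SKF+Aβ minus SKF on the x axis for the feedback genes and the 6 pathway lists, a circle for each tested gene, filled and named where the adjusted p was under 0.05. Black bars are list medians and the dashed line is the median of all genes; the bars of the feedback genes (-0.46) and the NF-κB targets (-0.47) lie to its left, and that of the receptors (0.01) on it.

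Cell type markers give the tissue behind these values. Excitatory neuron markers summed to 3243 to 4387 CPM per library and Wfs1, a marker of CA1, was at 98.1 to 372, while Fibcd1, another, was listed at 0 in all libraries. Wfs1 read 137 and 231 with SKF, 372 and 113 with SKF+Aβ, and 152 and 187 with SKF+Aβ+CSP. It read 339 and 111 with SKF+Aβ+CSP‐TTK21 and 140 and 98.1 with CSP‐TTK21 alone. Prox1, a marker of the neighbouring dentate granule cells, was at 142 to 248. Microglia, a main source of NF-κB signalling, had sums over all 9 markers of 157 and 264 CPM in SKF and 159 and 200 in SKF+Aβ, and between 154 and 265 in the other groups. In SKF+Aβ against SKF 7 of these 9 markers had a lower mean (50.1% of all genes), with a median log2 fold change of -0.30, and 2 had an unadjusted p under 0.05 and were lower (10.9%). They were the complement genes C1qa, at 23.6 and 39.2 CPM with SKF and 12.6 and 14.9 with SKF+Aβ (adjusted p = 0.0617, edgeR), and C1qb (adjusted p = 0.127, edgeR), whose libraries did not overlap either, and they are named after their values were seen. Endothelial markers, of which 6 of 8 were matched and Cldn5 was listed at 0 in all libraries, summed to 167 and 90.8 with SKF, 128 and 103 with SKF+Aβ, 177 and 140 with SKF+Aβ+CSP, 75.6 and 77.0 with SKF+Aβ+CSP‐TTK21, and 111 and 94.1 with CSP‐TTK21 alone. The endothelial sum was highest in SKF+Aβ+CSP replicate 1 and SKF replicate 1, which also had the highest means of the 10 feedback genes. It was lowest in SKF+Aβ+CSP‐TTK21 replicate 1, where 8 of the 10 feedback genes were above their own mean. The next lowest sum was in replicate 2 of that group, where 1 of the 10 was above its own mean. Oligodendrocyte markers were lower in SKF+Aβ for 6 of 6 genes (50.1% of all genes), with sums of 16211 and 23950 in SKF and 15528 and 10918 in SKF+Aβ, and 4 had an unadjusted p under 0.05 (edgeR; 10.9% of all genes). Astrocyte markers summed to 3503 to 5210 CPM per library, with 5 of 7 lower in SKF+Aβ than in SKF and 2 of them at an unadjusted p under 0.05, markers of meninges and choroid plexus to 10.51 to 34.6, and those of blood to 23.8 to 37.4. In the same comparison 3 of 5 tested endothelial and 2 of 5 tested excitatory neuron markers were lower, and 1 neuron marker was higher at an unadjusted p under 0.05 (12% of all genes).

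In the other comparisons the markers are given as the number with a higher mean, with the median log2 fold change, in the order microglia, astrocyte, endothelial, oligodendrocyte and excitatory neuron. In SKF+Aβ+CSP against SKF these were 1 of 9 (-0.45), 1 of 7 (-0.14), 5 of 5 (0.35), 2 of 6 (-0.26) and 2 of 5 (-0.12), where 50.3% of all genes were higher. There 2 microglia, 2 astrocyte and 2 neuron markers were lower at an unadjusted p under 0.05 (9.03%), and 2 endothelial markers higher (10.3%). In SKF+Aβ+CSP‐TTK21 against SKF they were 5 of 9 (0.11), 4 of 7 (0.26), 2 of 5 (-0.64), 2 of 6 (-0.09) and 3 of 5 (0.24), against 48.7%, with 1 microglia and 1 neuron marker higher (10.8%) and 2 endothelial markers lower (8.78%) at that p. In CSP‐TTK21 alone against SKF they were 6 of 9 (0.24), 6 of 7 (0.16), 2 of 5 (-0.27), 0 of 6 (-0.34) and 0 of 5 (-0.17), against 50.4%, with 1 endothelial and 2 oligodendrocyte markers lower (3.63%).

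With the empty particle against SKF+Aβ, where all 10 feedback genes were higher, endothelial and oligodendrocyte markers were higher and those of the other 3 cell types mostly lower. The numbers were 2 of 9 (-0.09), 1 of 7 (-0.06), 5 of 5 (0.35), 6 of 6 (0.39) and 0 of 5 (-0.14), against 48.4%, with 1 endothelial marker higher (1.63%). With the loaded particle against SKF+Aβ they were 8 of 9 (0.48), 7 of 7 (0.31), 0 of 5 (-0.59), 6 of 6 (0.54) and 3 of 5 (0.11), against 51.9%, with 2 microglia and 5 oligodendrocyte markers higher (2.52%) and 1 endothelial marker lower (4.06%). In the loaded against the empty particle group they were 8 of 9 (0.55), 7 of 7 (0.40), 0 of 5 (-0.98), 6 of 6 (0.14) and 4 of 5 (0.25), against 51.1%, with 2 microglia, 1 astrocyte and 1 neuron marker higher (3.17%) and 4 endothelial markers lower (5.61%). Against CSP‐TTK21 alone the loaded group had 4 of 9 (-0.10), 5 of 7 (0.09), 1 of 5 (-0.31), 6 of 6 (0.35) and 4 of 5 (0.35), against 50.7%, with 1 neuron marker higher (2.06%) and 1 endothelial marker lower (2.12%). The part of any of these cell types in the differences of the feedback genes was not tested.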

How the data were processed

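RNA from rat CA1 slices was sequenced in 10 libraries after ribosomal RNA depletion with a stranded kit. The deposited values are raw counts of reads for each rat Ensembl gene, neither normalized nor pooled by the authors. Per the labels' processing notes, STAR, RSEM, HISAT2 and Salmon and the build GRCh38 are named without roles, while the paper's methods describe an index of a rat build and TopHat2 alignment to a mouse build, after adapter trimming and removal of PCR duplicates. For quantification the paper names Cufflinks, with Cuffmerge for the annotation, without tying either to the deposited counts. The program and annotation that made these counts, and the use of strand, are not given in the sources used here, so overlapping or near-identical genes are uncertain. Total counts were 6753742 to 8473407 per library, so that 3 counts correspond to 0.354 to 0.444 CPM. Within groups the libraries differed by more than counting noise (chi-square per degree of freedom of 4.73 to 12.1 over genes). The study calls the 2 libraries of a group biological replicates, but does not say whether they came from separate animals, so p-values measure the spread between these libraries.

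Sample labels gave each library its group and replicate number. The analysis ran edgeR 4.0.16 under R 4.3.3: filterByExpr by group, TMM factors and one quasi-likelihood fit of all 10 libraries with a mean per group, since the study used an unpaired test. The common biological coefficient of variation was 0.136. The fold limit and the false discovery rate follow the study's methods. The scripts were tested on simulated counts. Alternatives were a block for replicate number, a fit limited to the 4 libraries compared, DESeq2 1.42.0, limma 3.58.1 on log2 CPM with a prior count of 2, RLE factors, no filter, at least 10 counts per library throughout, and fits that each dropped 1 library.

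The 10 genes and the pathway and marker lists were chosen with earlier results of these data known. Named beyond the 10 are pathway list genes with an adjusted p under 0.05 in a comparison or, where fewer than 2 of a list passed, the 2 with the lowest p over the 5 groups, and the most correlated genes; cell type markers are given as lists, and those named among them (Wfs1, Fibcd1, Prox1, C1qa, C1qb and Cldn5) lie outside this rule and were chosen after their values were seen. Mcl1, Zfp36l2, Ier2, Pou3f1, Pecam1, Ly6c1 and Hba-a2 had no row under these symbols, and Tlr4 was not tested. Promoter windows are from RefSeq. No gene lengths were used.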

Additional observations from a re-analysis of the deposited data

How the results depend on the processing

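The number of feedback genes called was 0 in each of the 8 comparisons under every alternative run, and the lower median in SKF+Aβ against SKF kept its sign in all of them. The limits lie elsewhere: with 2 libraries a group, 38 of the 80 differences of a gene between groups changed sign in at least 1 fit without a library, and Bcl3 rests on 11 to 51 counts. For Socs3 in SKF+Aβ against SKF, the fit of only the 4 libraries compared gave -0.85 with an adjusted p of 0.0755 (edgeR), while the other alternatives with all 10 libraries kept it under 0.05, between 0.000276 with no filter and 0.0464 with RLE factors. DESeq2 put Nfkbia there at an adjusted p of 0.0288, and without a filter on low counts Nfkbia, Tnfaip3, Zfp36 and Icam1 went under 0.05 (edgeR, adjusted p of 0.000360, 0.000293, 0.00694 and 0.00699), where the calls over all genes also rose, from 22 to 112 (DESeq2 gave 5 and the fit of 4 libraries 7). The cause was not tested. Over the 8 comparisons, 13 differences of a feedback gene went under an adjusted p of 0.05 only in an alternative that was not a leave-one-out fit. Not all of these are named here. For 15 named pathway genes the same alternatives, chosen after seeing the data, turned no direction in SKF+Aβ against SKF; of the 8 with an adjusted p under 0.05, 0 kept it in the fit of 4 libraries, all 7 for which DESeq2 gave one kept it (none was given for Ier5l), and 0 to 2 with 1 library left out. Of the 15, Chuk, which was higher in SKF+Aβ, went under an adjusted p of 0.05 in 2 of these alternatives, and Ptpn11, which was lower, in 1. Same-numbered libraries deviated together only weakly over all genes, with correlations of -0.0691 to 0.237, so the numbers were not taken as pairs. Over the 10 feedback genes alone the correlations were -0.376 to 0.816, the highest between SKF and SKF+Aβ. With the replicate block Nfkbia (-0.69, adjusted p = 0.0362), Icam1 (-0.67, adjusted p = 0.0368) and Socs3 (-0.86, adjusted p = 0.0397) were under 0.05 in SKF+Aβ against SKF (edgeR), all-gene calls were 34, and Tnfaip3 turned to 0.049 in SKF+Aβ+CSP against SKF. Genes at an unadjusted p under 0.05 with the block were 5 in SKF+Aβ+CSP‐TTK21 against SKF, and for that group 1 against SKF+Aβ, 3 against SKF+Aβ+CSP and 2 against CSP‐TTK21 alone.

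Without a filter that count was 5 in SKF+Aβ+CSP‐TTK21 against SKF, 5 in SKF+Aβ+CSP against SKF+Aβ, and for SKF+Aβ+CSP‐TTK21 3 against SKF+Aβ, 2 against SKF+Aβ+CSP and 3 against CSP‐TTK21 alone. It was 2 in SKF+Aβ+CSP‐TTK21 against SKF+Aβ+CSP with 4 libraries and 1 in SKF+Aβ+CSP‐TTK21 against SKF+Aβ with limma. Over the 5 groups 1 gene had an adjusted p under 0.05 with DESeq2 (2.57% of all genes) and 5 with no filter (5.55%; edgeR). Small differences from SKF turned in SKF+Aβ+CSP for Tnfaip3 (0.050 with limma) and Nfkb1 (-0.0043 with DESeq2, -0.0043 with RLE factors, -0.024 with no filter). With no filter Nfkbiz in SKF+Aβ+CSP‐TTK21 against SKF was -0.00063, and Stat3 in that group against CSP‐TTK21 alone 0.0028.

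With each library left out in turn, SKF+Aβ against SKF had 2 to 5 genes at an unadjusted p under 0.05, and log2 fold changes of -0.85 to 0.34 for Bcl3 and -0.45 to 0.020 for Stat3. SKF+Aβ+CSP against SKF had 0 to 1 genes, with -0.40 to 0.50 for Tnfaip3, -0.59 to 0.59 for Bcl3, -0.34 to 0.089 for Icam1, -0.18 to 0.12 for Stat3, -0.18 to 0.25 for Nfkbiz, -0.14 to 0.15 for Nfkb1 and -0.041 to 0.12 for Ier3. SKF+Aβ+CSP‐TTK21 against SKF had 1 to 6 genes and a median of -0.49 to -0.068, with -1.19 to 0.065 for Tnfaip3, -0.22 to 0.24 for Nfkbiz, -0.29 to 0.12 for Zfp36 and -0.31 to 0.081 for Ier3. CSP‐TTK21 alone against SKF had 0 to 6 genes and a median of -0.64 to -0.21, with -0.82 to 0.37 for Bcl3 and -0.45 to 0.043 for Ier3. SKF+Aβ+CSP against SKF+Aβ had 0 to 2 genes, with -0.036 to 0.81 for Zfp36, -0.10 to 0.72 for Bcl3 and -0.067 to 0.40 for Stat3. SKF+Aβ+CSP‐TTK21 against SKF+Aβ had 0 to 3 genes and a median of -0.11 to 0.40, with -0.27 to 0.11 for Nfkb1, -0.25 to 0.22 for Stat3, -0.14 to 0.53 for Nfkbia, -0.44 to 0.79 for Tnfaip3, -0.039 to 0.59 for Icam1, -0.085 to 0.32 for Ier3 and -0.061 to 0.34 for Socs3. SKF+Aβ+CSP‐TTK21 against SKF+Aβ+CSP had 0 to 5 genes and a median of -0.43 to 0.034, with -0.65 to 0.030 for Nfkbia, -0.24 to 0.18 for Nfkbiz, -1.18 to 0.051 for Tnfaip3, -0.58 to 0.052 for Icam1, -0.37 to 0.037 for Ier3 and -0.40 to 0.0052 for Stat3. SKF+Aβ+CSP‐TTK21 against CSP‐TTK21 alone had 0 to 3 genes and a median of -0.19 to 0.32, with -0.32 to 0.37 for Nfkbia, -0.37 to 0.85 for Tnfaip3, -0.29 to 0.34 for Icam1, -0.14 to 0.34 for Ier3, -0.16 to 0.16 for Nfkb1, -0.22 to 0.18 for Stat3 and -0.42 to 0.036 for Socs3. A group left with 1 library was assumed to vary like the others.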
